A study of Homo sapiens with 46 samples.

Results

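Genes named LINC followed by a number, most of them annotated as long noncoding, were described in DLD-1 cells, an established line from a human colorectal adenocarcinoma. The genes were chosen by their symbol and by their measured level, a mean over all 46 libraries of at least 0.5 CPM, the count of a gene per 1000000 counts of its library. Of 62756 genes in the count table, 2286 had such a symbol, 1534 of these had at least 1 count, and 291 met the level. All 291 also passed the low-count filter of the fit, and 1 symbol, LINC01605, stood for 2 gene IDs. Levels are therefore given as a description, without a test: LINC01140, LINC01389 and LINC00640 lay just above the limit at 0.507, 0.510 and 0.511 CPM, and LINC00486, LINC01119 and LINC02012 just below it at 0.499, 0.491 and 0.488 CPM.

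The libraries came from 4 lines. The parental line, labelled WT, carried no tag. The other lines, called LAC, LB1 and LB2, each had an auxin-inducible degron on its endogenous lamin (Lamin A/C in LAC, Lamin B1 in LB1, Lamin B2 in LB2), a tag through which the plant hormone auxin directs the tagged protein to the proteasome. All lines received 1 mM auxin for 0, 16 or 96 h, the parental line included, which gave 12 groups of 4 libraries, except 3 each for LB1 at 0 h and LB2 at 96 h. Every library came from 1 well of a plate, so each p-value measures the spread between wells. The labels do not state whether a tagged line was 1 clone or whether cells at 0 h received the solvent, and lamin protein was not measured in these libraries.

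Lamins form the meshwork under the inner nuclear membrane, and chromatin at that membrane is largely silent. Intergenic long noncoding RNAs are transcribed by RNA polymerase II from their own promoters between protein-coding genes. Most are spliced and scarce, many are enriched in the nucleus, some are removed by the nuclear exosome, and many are expressed in few cell types. For most genes with a LINC name no function is known, so they are described here by where they lie and by the genes next to them.

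RefSeq promoter sequences (GRCh38.p14) numbered 220 for the 290 symbols. A symbol can have more than 1, and the symbols with a sequence were not counted. Sequences of 5 members are shown, to give the DNA upstream of members whose levels changed. Members on chromosomes 8, 18 and Y were left out of this choice. The others with a sequence were ranked by the number of comparisons in which they passed the test, and then by level. These were the 8 comparisons of an auxin time with 0 h within a line. LINC03040 passed in 3 of these comparisons and the other 4 in 2. Each sequence runs from 250 bases before to 50 bases after the RefSeq start, 300 bases in all. LINC02967, which passed in 4 comparisons, is not shown because its RefSeq start lies 13276 bases from the start in the count table. Capitals mark GCGTG, the core of the site bound by the aryl hydrocarbon receptor, or TGANTCA, the core of the AP-1 site. Both strands were searched, so that CACGC is GCGTG read from the other strand. LINC02595 lies on the minus strand at chrX:45851441-45851740, LINC01504 on the plus strand at chr9:72305186-72305485, LINC03040 on the plus strand at chr6:44000335-44000634, LINC00630 on the plus strand at chrX:102768903-102769202 and LINC01213 on the plus strand at chr3:150238269-150238568.
LINC02595: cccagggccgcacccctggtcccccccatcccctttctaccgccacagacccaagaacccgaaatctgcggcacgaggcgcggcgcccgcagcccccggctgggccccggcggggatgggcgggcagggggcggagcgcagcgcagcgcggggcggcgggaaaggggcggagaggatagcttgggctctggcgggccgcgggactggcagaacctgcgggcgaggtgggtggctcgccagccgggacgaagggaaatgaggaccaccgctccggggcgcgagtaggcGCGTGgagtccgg
LINC01504: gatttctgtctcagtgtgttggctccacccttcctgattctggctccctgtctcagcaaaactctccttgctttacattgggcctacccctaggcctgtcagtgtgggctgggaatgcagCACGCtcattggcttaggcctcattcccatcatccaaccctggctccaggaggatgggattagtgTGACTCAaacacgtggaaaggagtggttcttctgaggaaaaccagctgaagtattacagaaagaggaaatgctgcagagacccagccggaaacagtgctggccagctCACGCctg
LINC03040: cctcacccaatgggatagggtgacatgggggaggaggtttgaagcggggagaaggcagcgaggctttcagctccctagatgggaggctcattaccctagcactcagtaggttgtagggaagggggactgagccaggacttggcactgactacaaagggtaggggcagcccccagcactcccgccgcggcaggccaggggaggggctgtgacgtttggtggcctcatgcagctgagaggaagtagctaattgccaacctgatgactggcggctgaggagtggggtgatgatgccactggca
LINC00630: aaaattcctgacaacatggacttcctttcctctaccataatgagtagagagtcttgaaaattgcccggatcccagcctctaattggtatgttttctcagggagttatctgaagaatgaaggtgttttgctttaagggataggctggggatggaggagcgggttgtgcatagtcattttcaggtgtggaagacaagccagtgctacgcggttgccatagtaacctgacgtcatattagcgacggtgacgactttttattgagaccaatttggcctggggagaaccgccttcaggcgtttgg
LINC01213: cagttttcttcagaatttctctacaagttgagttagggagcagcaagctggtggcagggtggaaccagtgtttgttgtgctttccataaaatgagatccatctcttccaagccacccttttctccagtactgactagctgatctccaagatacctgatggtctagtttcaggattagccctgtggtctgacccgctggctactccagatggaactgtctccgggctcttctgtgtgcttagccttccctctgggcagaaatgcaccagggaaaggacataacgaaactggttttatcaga
The LINC02595 window had a GC content of 75.7%, with 36 CpG pairs and 1 GCGTG. The LINC01504 window, at 53.3% GC, held 2 GCGTG and 1 TGANTCA, which do not overlap each other. The windows of LINC03040, LINC00630 and LINC01213, at 60.7%, 47.0% and 48.3% GC, held none of the motifs searched. Of all 35116 promoters that RefSeq lists there, 36.5% held GCGTG, 7.71% held TGANTCA and 1.29% held a CArG box, the site of serum response factor. The 220 member promoters held them in 30.0%, 11.8% and 0.455%. For the 27 members that fell in the parental line at either time, 13 promoters were listed. Of these promoters 6 held GCGTG, 5 held TGANTCA and 0 held a CArG box.

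The members were scarce. Their median mean was 1.57 CPM, with 196 of 291 at 1 CPM or more, 55 at 5 CPM or more and 29 at 10 CPM or more. Per kilobase of counted exon, the median level was 0.638 CPM, against 5.66 CPM for the 13171 protein-coding genes at the same minimum level. Their counted length had a median of 3245 bases over 5 exon blocks, against 5320 bases over 11 blocks for the protein-coding genes. GC content was similar, with medians of 48.7% and 49.5%. Of the members, 94 had at least 1 count in every library and 4 were at 0 in 10 or more libraries. By GENCODE 29, 232 members were of type lincRNA, 22 antisense, 17 processed transcript and 2 protein-coding. A further 9 were not in that release, and the rest had other types, pseudogenes among them. Although named intergenic, only 115 overlapped no other gene of the table, 40 overlapped the body of a protein-coding gene, and 107 shared exon positions with another gene on either strand. Whether counting used strand is not given in the sources used here, so reads of those 107 genes and of their partners cannot be told apart, and counts are also given for the 184 without such overlap. Of the members with values below, LINC00484, LINC00511, LINC00598, LINC00630, LINC00662, LINC00668, LINC00921, LINC01011, LINC01090, LINC01106, LINC01504, LINC01943, LINC02236, LINC02454, LINC02577, LINC02984, LINC03033 and LINC03040 share exon positions in this way.

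LINC02086 and LINC03057 were the 2 members with the highest level per kilobase, at 41.5 and 39.3 CPM. They lie beside HOXB7, in the cluster of HOXB genes that specify position along the body axis, and share exon positions on opposite strands. LINC02086 had group means between 137 ± 45.0 CPM (SD, n = 4) in LB2 at 16 h and 189 ± 7.28 CPM (SD, n = 4) in LB1 at 96 h, and LINC03057 between 47.9 ± 0.537 CPM and 74.8 ± 11.2 CPM (SD, n = 4). LB2 at 16 h includes 1 library of only 479446 counts, replicate 3. There LINC02086 took 5.73% of the members' counts, against 10.6% to 14.5% in the other wells of that group. Neither LINC02086 nor LINC03057 passed the test in any of the 14 comparisons described here. The other members with the highest level per kilobase were LINC02967 at 11.3, LINC02595 at 11.3 and LINC02331 at 9.40 CPM per kilobase.

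Library totals ran from 479446 to 37309421 counts with a median of 11533218, and 6 were under 5000000. Except for the least deep, from LB2 at 16 h, these 6 were 0 h wells, from all 4 lines. They were parental replicate 4, LAC replicate 1, LB1 replicate 2 and LB2 replicates 1 and 4. The median total in LAC was 10303750 at 0 h and 22475872 at 16 h. A count of 0 allows up to 6.26 CPM in the least deep library, replicate 3 of LB2 at 16 h, and up to 0.0804 CPM in the deepest, for counting error only. The shallow libraries had counts for as few as 123 members. Epithelial markers of the colon summed to 5482 to 12580 CPM per library, with 9 of 11 at 1 CPM or more, against 0 to 6.10 CPM for 6 fibroblast markers, of which 2 were at 0 in all libraries. Leukocyte markers summed to 0 to 0.927 CPM and endothelial markers to 2.18 to 17.5 CPM. The gene of the tagged lamin was lower at 0 h than in parental cells: in the matching line LMNA was at 435 ± 230 against 738 ± 111 CPM, LMNB1 at 94.7 ± 7.31 (n = 3) against 147 ± 8.92 CPM and LMNB2 at 143 ± 79.2 against 283 ± 32.5 CPM (SD, n = 4 elsewhere; edgeR adjusted p = 0.0346, 0.0115 and 0.000857). The wells overlapped for LMNA (LAC up to 773, parental from 614.5 CPM) and for LMNB2 (LB2 up to 261, parental from 235 CPM). The untagged LMNB1 and LMNB2 were higher in LAC at 0 h than in parental cells. Their log2 differences were 0.62 and 0.81 (edgeR adjusted p = 0.0025 and 0.0048). Fewer cells of a kind and less RNA per cell cannot be told apart in such libraries.

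Together the members took 0.101% to 0.210% of a library's counts, with a median of 0.132%. For parental cells this share was 0.159% ± 0.0101 (SD, n = 4) at 0 h, 0.125% ± 0.00455 at 16 h and 0.132% ± 0.00681 at 96 h. The LAC line had 0.117% ± 0.00717, 0.113% ± 0.00784 and 0.137% ± 0.00631 at the same times. The LB1 line had 0.147% ± 0.00783 (n = 3), 0.128% ± 0.00609 and 0.179% ± 0.0211, and the LB2 line 0.137% ± 0.0137, 0.121% ± 0.0132 and 0.151% ± 0.0135 (n = 3). In every line the mean was lowest at 16 h. The tagged lines had their highest mean at 96 h, and the parental line had it at 0 h. The 10 highest members held between 32.8% and 43.1% of the members' counts, so the share leans on few genes.

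**Figure D1:**
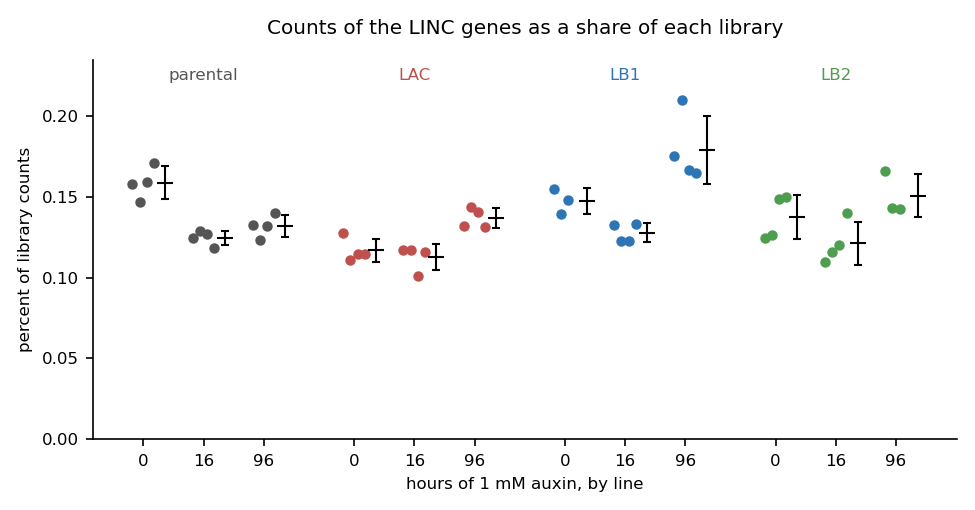
Percent of each library's counts that fell on the 291 LINC genes (vertical axis), by line and hours of auxin (horizontal axis). Points are libraries and the bars are means ± SD of 3 or 4 libraries. The parental libraries are highest at 0 h, whereas the LAC, LB1 and LB2 means are highest at 96 h.

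Levels also ranged widely between groups. On the scale log2(CPM + 0.1), the median member spanned 1.63 between its lowest and highest group mean, 40 members stayed within 2-fold and 87 spanned over 4-fold. The widest spans belonged to LINC02408 at 7.09, LINC01811 at 6.01, LINC02009 at 4.09 and LINC02984 at 3.66. LINC02408 met the level limit only through the LB2 libraries, so its span is partly a result of the selection. LB1 at 96 h held the highest mean of 63 members, LB2 at 0 h that of 42 and the parental line at 0 h that of 35. LB2 at 16 h, which contains the least deep library, held the lowest mean of 49 members, LB1 at 16 h that of 41 and LAC at 0 h that of 37. Such counts were not made over all genes, so whether they are particular to the members is not known.

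Each comparison was tested with edgeR's quasi-likelihood test over 21484 genes, with p-values adjusted by the Benjamini-Hochberg method. A gene passed when its adjusted p was under 0.05. Of the 291 members, 91 passed in at least 1 of 14 comparisons and 200 in none. Comparisons share libraries: the parental 0 h wells enter 8 of the 14, and each line's 0 h wells enter its comparisons at both times. In the 8 comparisons within a line, 61 members passed at least once, 45 of them in 1 comparison only. In the parental line 32 passed at either time and in the tagged lines 39 passed, with 10 in both. The share of all tested genes that passed at least once was not computed. These totals therefore have no background and do not set the members apart from other genes.

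The counts are read against the share of all tested genes that passed. Among parental cells 24 members passed at 16 h, 2 higher and 22 lower. This is 8.25% of members against 9.01% of all genes, but the directions differed: 7.56% of members were lower against 4.78% of all genes, and 0.687% were higher against 4.23%. This skew was not particular to the LINC genes: of 3701 other long noncoding genes 8.11% passed, 16 higher and 284 lower. At 96 h 14 passed, 3 higher and 11 lower, 4.81% against 7.78% of all genes. The share lower was 3.78% of members against 3.84% of all genes, and the share higher 1.03% against 3.94%. In the LAC line 4 passed at 16 h, 3 higher and 1 lower, 1.37% against 1.78% (1.34% higher, 0.447% lower), and 24 at 96 h, 17 higher and 7 lower, 8.25% against 15.4% (6.74% higher, 8.64% lower). In the LB1 line 5 passed at 16 h, all lower, 1.72% against 1.5% (0.987% higher, 0.517% lower), and 6 at 96 h, 3 in each direction, 2.06% against 3.17% (1.05% higher, 2.12% lower). In the LB2 line 2 passed at 16 h, both higher, 0.687% against 1.81% (1.43% higher, 0.377% lower), and 3 at 96 h, all higher, 1.03% against 3.55% (1.95% higher, 1.6% lower). The members thus passed at or below the rate of all genes in the 8 comparisons, except for LB1 at 16 h, where 1.72% is near the background. Genes without exon overlap made 16 of the parental calls at 16 h and 9 at 96 h. For LAC they made 4 and 16, for LB1 3 at each time and for LB2 2 at each time.

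**Figure D2:**
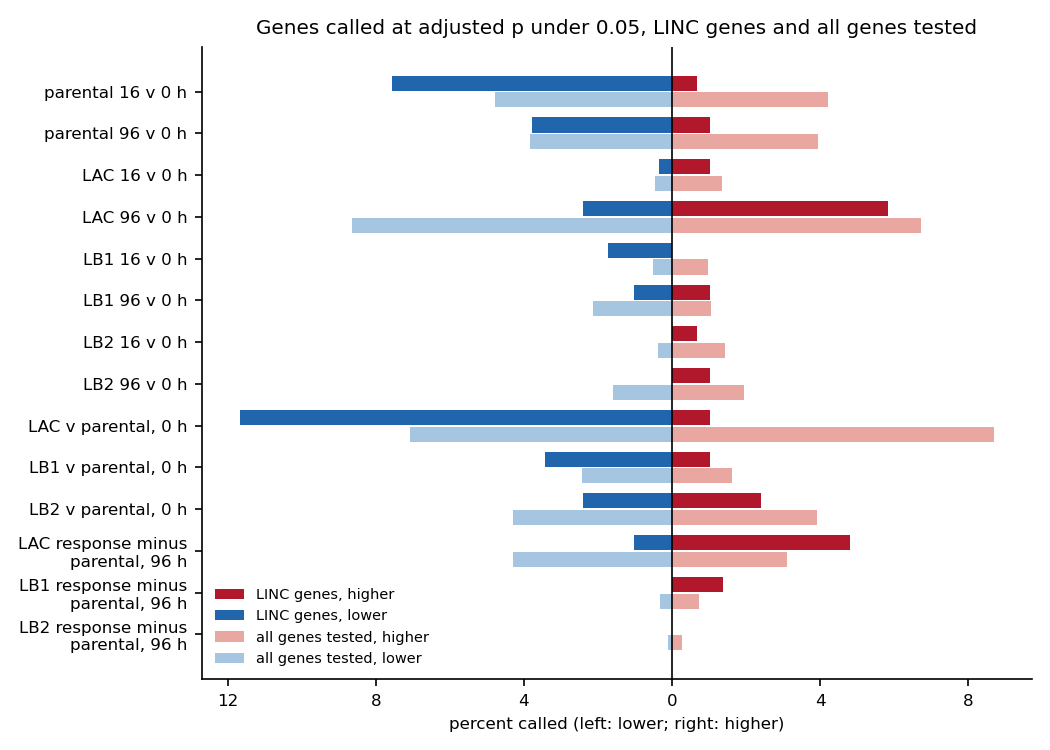
Percent of the 291 LINC genes and of all 21484 tested genes that passed edgeR's test at adjusted p under 0.05 (horizontal axis), higher to the right and lower to the left, for each of 14 comparisons (vertical axis). In the parental line at 16 h 7.56% of the LINC genes were lower and 0.687% higher, against 4.78% and 4.23% of all genes.

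The medians are over all 291 members, whether or not they passed, and did not always have the direction of the calls: in LAC and LB2 at 16 h more of the called members were higher, while the medians lay below 0. In the parental line the median log2 change of the members was -0.23 at 16 h and -0.28 at 96 h, against -0.04 and -0.03 for all tested genes, and 188 and 189 of the 291 were below 0. The 3701 other long noncoding genes in the fit had medians of -0.50 and -0.41. The members' medians at 16 and 96 h were -0.11 and 0.06 for LAC, -0.26 and 0.12 for LB1, and -0.23 and 0.04 for LB2, while all genes lay between -0.02 and 0.04. Relative to all genes, the members' median in the parental line was -0.19 at 16 h and -0.25 at 96 h. A change of scale moves members and other genes alike, and with library size as the scale the all-gene median shifted by up to 0.21.

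**Figure D3:**
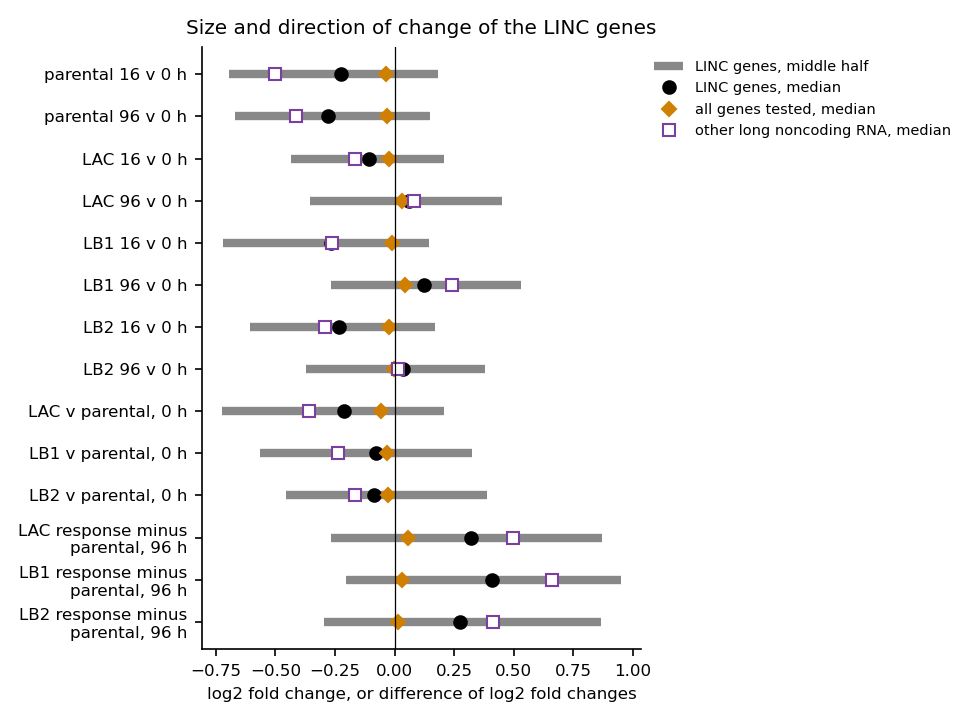
Median log2 change of the 291 LINC genes with the span from the lower to the upper quartile of the members (points and bars), beside the medians of all tested genes and of 3701 other long noncoding genes, for 14 comparisons. For parental cells the LINC medians are -0.23 and -0.28, between those of all genes and of the other long noncoding genes.

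In parental cells some LINC genes were lower after auxin, although these cells carried no tagged lamin. At 96 h the share of members called lower, 3.78%, was near the 3.84% of all genes. LINC02595, a gene of 4 exon blocks on chromosome X that overlaps no other exon, stood at 61.9, 26.4, 44.8 and 42.5 CPM at 0 h. It stood at 19.2, 14.3, 12.5 and 13.0 CPM at 16 h and at 13.7, 16.8, 13.7 and 17.6 CPM at 96 h. No library at 16 or 96 h reached the lowest at 0 h. The log2 change was -1.56 ± 0.36 (SE) at 16 h (adjusted p = 0.00417) and -1.50 ± 0.36 at 96 h (adjusted p = 0.00528). In the tagged lines LINC02595 did not pass: the 0 h wells ran from 18.2 to 91.6 CPM in LAC, from 19.1 to 25.6 CPM in LB1 and from 20.5 to 63.8 CPM in LB2.

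LINC01814 lies on chromosome 2 on the side of ID2, an inhibitor of basic helix-loop-helix transcription factors. Its parental wells held 19.6, 17.5, 19.0 and 23.0 CPM at 0 h, 7.37, 9.88, 9.11 and 9.42 CPM at 16 h and 9.07, 7.08, 10.7 and 9.47 CPM at 96 h. All wells with auxin lay below all wells without it. LINC01814 fell by 1.13 ± 0.20 on the log2 scale at 16 h (adjusted p = 0.000285) and by 1.12 ± 0.20 at 96 h (adjusted p = 0.000219). LINC00299, whose body overlaps that of LINC01814 on the same strand without sharing exon positions, fell by 0.93 ± 0.29 at 16 h, from 4.10 ± 0.744 to 2.12 ± 0.623 CPM (SD, n = 4; adjusted p = 0.0374), a call that was lost without any of 6 of the 8 wells (adjusted p up to 0.151).

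LINC01504 on chromosome 9, which shares exon positions with ZFAND5 on the other strand, held 5.97, 4.62, 4.66 and 6.53 CPM at 0 h. It held 1.55, 2.03, 2.78 and 3.24 CPM at 16 h and 1.80, 2.59, 1.25 and 3.22 CPM at 96 h. Again the groups did not overlap. The log2 changes were -1.22 ± 0.32 (adjusted p = 0.0128) and -1.24 ± 0.33 (adjusted p = 0.0118). At 16 h the call was lost without replicate 1 of the 0 h wells or replicate 1 or 2 of the 16 h wells (adjusted p up to 0.0629).

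LINC03040 on chromosome 6 shares exon positions with SCIRT on the other strand. Its parental wells held 21.8, 20.3, 20.6 and 19.3 CPM at 0 h, 9.74, 17.9, 9.88 and 14.0 CPM at 16 h and 9.15, 14.0, 9.63 and 9.56 CPM at 96 h. It fell by 0.96 ± 0.23 on the log2 scale at 96 h (adjusted p = 0.00529). LINC03061 on chromosome 13, which overlaps no other exon, held 40.9 ± 5.57 CPM before auxin, 25.8 ± 2.67 CPM after 16 h and 26.5 ± 4.33 CPM after 96 h (SD, n = 4). It fell by 0.67 ± 0.17 at 16 h (adjusted p = 0.0111) and by 0.63 ± 0.17 at 96 h (adjusted p = 0.0173). The 16 h call was lost without replicate 2 at 0 h (adjusted p = 0.0519), and the 96 h call without replicate 2 or 4 at 0 h or 1 or 2 at 96 h (adjusted p up to 0.0849).

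Among the other members that passed at 16 h with at least 1 CPM, the largest changes were in LINC01943, LINC00598, LINC01090, LINC00628 and LINC00456, at -2.14, -2.0, -1.94, -1.86 and -1.80 on the log2 scale. LINC01943 went from 2.65 ± 1.04 to 0.508 ± 0.334 CPM (SD, n = 4; adjusted p = 0.00371) and shares exon positions with CYTOR, a long noncoding RNA with a near-identical copy elsewhere on chromosome 2, so its level is uncertain. LINC00628 went from 2.09 ± 1.38 to 0.533 ± 0.324 CPM (SD, n = 4; adjusted p = 0.0153), a call lost without replicate 4 at 0 h or at 16 h (adjusted p up to 0.100). The calls of LINC00598, LINC01090 and LINC00456 each rested on 5 to 7 of the 8 wells, in that leaving any of these out ended the call. Of the 2 members that rose at 16 h, 1 was LINC02967, a gene of 1 exon on chromosome 20, at 10.9, 11.1, 10.2 and 8.46 CPM at 0 h and 16.7, 16.0, 9.88 and 16.6 CPM at 16 h. These groups overlapped in replicate 3, and the change of 0.54 ± 0.18 (adjusted p = 0.0471) was lost without any of 6 of the 8 wells.

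At 96 h the largest changes besides LINC02595 were in LINC01488, LINC02680, LINC00921 and LINC01594. LINC01488 had 25 counts at 0 h and 3 at 96 h, a ratio of 0.0930 (95% counting interval 0.0180 to 0.305). LINC02680 went from 2.50 ± 0.605 to 0.678 ± 0.526 CPM (SD, n = 4), a log2 change of -1.76 ± 0.45 (adjusted p = 0.0103), lost without replicate 4 at 96 h (adjusted p = 0.0540). LINC00921 and LINC01594 rose, from 0.656 ± 0.345 to 1.73 ± 0.353 CPM and from 2.27 ± 1.04 to 5.49 ± 2.37 CPM (SD, n = 4), with adjusted p = 0.0440 and 0.0215. Leaving out any of 7 of the 8 wells ended the call of LINC00921, and any of 4 that of LINC01594. The call of LINC01488 (adjusted p = 0.0370) was lost without any of 6 wells (adjusted p up to 0.107).

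Of the parental calls, 19 of 24 at 16 h and 13 of 14 at 96 h had groups that did not overlap, and 16 and 11 were at least 2-fold. Among all 291 members, called or not, the groups did not overlap for 54 at 16 h and 42 at 96 h. The share among all tested genes was not counted, so the lack of overlap is a description of the calls. The 6 members that passed at both times changed in the same direction at both. The 16 h count was 13 without replicate 1 at 0 h or replicate 4 at 16 h, 14 without replicate 4 at 0 h or replicate 1 at 16 h, and 15 without replicate 2 at 16 h. The 96 h count was 9 without replicate 4 at 0 h or at 96 h.

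**Figure D4:**
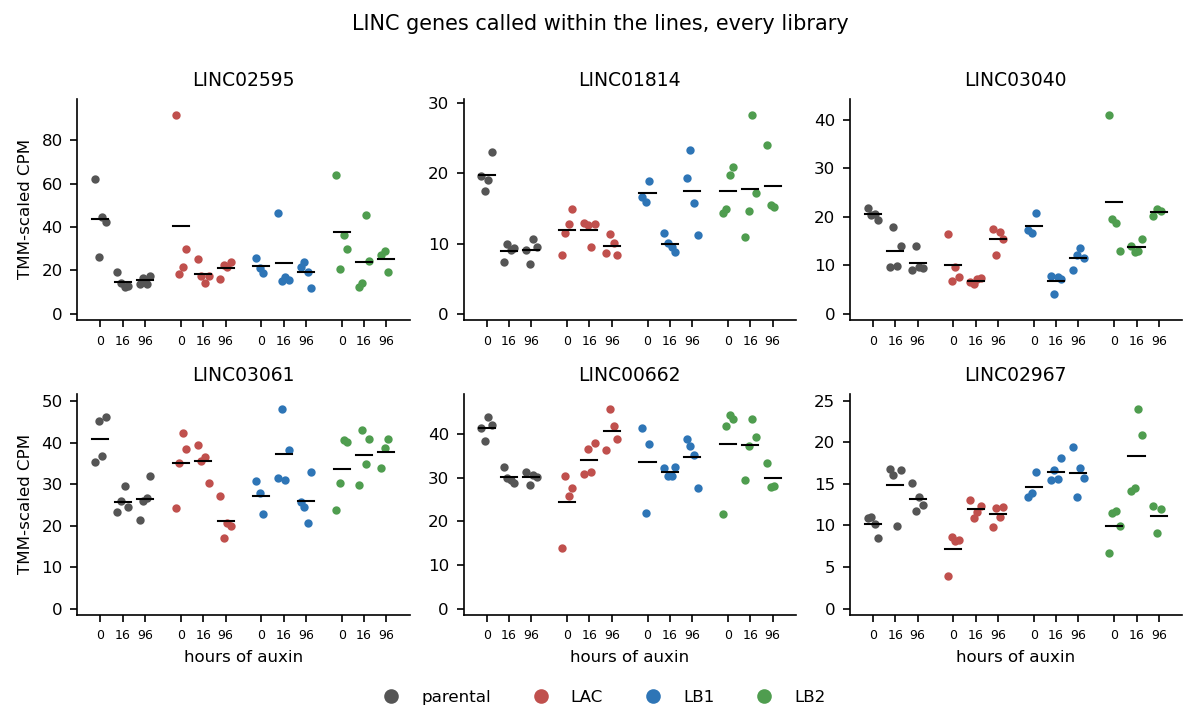
TMM-scaled CPM of 6 LINC genes (vertical axes, one panel per gene) in each library, by line and hours of auxin (horizontal axis). Points are libraries and lines are group means. LINC02595 falls from 43.9 to 14.7 CPM in the parental line, and LINC03040 falls there by 96 h but is higher at 96 h than at 0 h in the LAC line.

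In the LAC line the balance at 96 h was the other way, with 17 members higher and 7 lower. LINC00662 on chromosome 19, which shares exon positions with LINC02987 on the other strand, held 13.9, 30.4, 25.7 and 27.6 CPM at 0 h and 36.2, 45.6, 41.9 and 38.8 CPM at 96 h. Every 96 h well lay above every 0 h well. LINC00662 rose by 0.69 ± 0.16 on the log2 scale (adjusted p = 0.00239), and passed in 15 of 16 alternative settings, with an adjusted p of 0.0555 when only the compared groups were fitted. LINC00630 on chromosome X, which shares exon positions with a gene on the same strand, rose by 0.57 ± 0.16, from 11.1 ± 2.31 to 17.1 ± 1.30 CPM (SD, n = 4; adjusted p = 0.0124), a call lost without replicate 1 at 0 h or 2 at 96 h (adjusted p up to 0.0533).

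LINC01213 on chromosome 3 stood at 1.30, 2.07, 1.11 and 1.28 CPM at 0 h in the LAC line, and at 3.46, 4.14, 3.80 and 4.48 CPM at 96 h. The groups did not overlap. LINC01213 rose by 1.35 ± 0.30 on the log2 scale (adjusted p = 0.00159). LINC02984 rose by 1.01 ± 0.17, from 8.25 ± 2.41 to 17.7 ± 1.19 CPM (SD, n = 4; adjusted p = 4.21e-05). In the parental line LINC02984 also rose at 96 h, by 0.65 ± 0.17 (adjusted p = 0.0138), which was lost without replicate 3 at 0 h (adjusted p = 0.0523).

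LINC02901 and LINC03061 fell in the LAC line. LINC02901, on chromosome 6 upstream of EZR, which encodes ezrin, a linker of membrane and actin, held 5.50, 3.92, 3.97 and 4.07 CPM at 0 h and 1.68, 2.07, 1.62 and 1.91 CPM at 96 h. It fell by 1.22 ± 0.28 (adjusted p = 0.00187), with no overlap. LINC03061 went from 35.1 ± 7.76 to 21.2 ± 4.22 CPM (SD, n = 4) and fell by 0.74 ± 0.17 (adjusted p = 0.00187), although replicate 1 at 0 h, at 24.3 CPM, lay below replicate 1 at 96 h, at 27.1 CPM. LINC01488 had 33 counts at 0 h and 4 at 96 h and fell by 3.75 ± 1.01 (adjusted p = 0.00781), the largest change at 96 h in this line.

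The other large changes in LAC at 96 h were rises of 1.75 in LINC00456, 1.54 in LINC02803, 1.44 in LINC00628 and 1.29 in LINC02156 on the log2 scale. Their 96 h means were 0.794 ± 0.176, 1.75 ± 0.714, 1.41 ± 0.376 and 2.49 ± 1.404 CPM (SD, n = 4). Their calls, at adjusted p between 0.0296 and 0.0469, were lost when single wells were left out, any of 7 of 8 wells for LINC00456 and LINC00628, 6 for LINC02803 and 2 for LINC02156. At 16 h 4 members passed, LINC02035 at 1.35, LINC02967 at 0.65, LINC02977 at 0.63 and LINC02408, which had 11 counts at 0 h and 0 at 16 h and was at least 5.71-fold lower. Leaving out any of 5 to 7 of the 8 wells ended each of these 4 calls.

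The LAC counts moved with single wells. At 96 h 10 members passed without replicate 1 at 0 h, 12 without replicate 2 and 15 without replicate 4 at 96 h, and 6 when only the compared groups were fitted. Scaling by library size alone gave 31 higher and 5 lower at 96 h. At 16 h the count was 23 without replicate 2 at 0 h, 1 without replicate 1 or 3, and 0 without replicate 4 at 0 h or replicate 2, 3 or 4 at 16 h, and the split of 3 higher and 1 lower became 1 and 2 with median-ratio factors and 2 and 2 with library size alone. In this line the log2 change of a gene also followed its GC content: across 8547 genes the rank correlation was -0.72 at 16 h and -0.66 at 96 h, and across 282 members -0.27 and -0.39, against 0.01 and 0.02 across genes in the parental line. With the trend with GC and length removed, LINC00662, LINC01213, LINC02901, LINC02984 and LINC03061 still passed at 96 h and LINC00630 did not.

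In the LB1 line the 5 members that passed at 16 h were all lower. LINC03040 stood at 17.3, 16.6 and 20.7 CPM at 0 h and at 7.75, 4.16, 7.66 and 7.28 CPM at 16 h. The groups did not overlap, and LINC03040 fell by 1.46 ± 0.25 on the log2 scale (adjusted p = 0.000762). LINC01814 went from 17.2 ± 1.53 (n = 3) to 9.97 ± 1.18 CPM (SD, n = 4), also without overlap, and fell by 0.82 ± 0.22 (adjusted p = 0.0398), although leaving out any 1 of the 7 wells ended that call (adjusted p up to 0.199).

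LINC02939, LINC02236 and LINC00342 completed this group in LB1, at -1.97, -1.85 and -1.38 on the log2 scale with adjusted p = 0.0146, 0.0331 and 0.0172. LINC00342, which lies beside ANKRD36C, also fell in the parental line at 16 h, by 1.01 ± 0.30 (adjusted p = 0.0256). In LB1 its call was lost without replicate 1 or 3 at 0 h or 2 at 16 h, that of LINC02939 without replicate 2 at 0 h or 1 at 16 h, and that of LINC02236 without any of 6 wells. The count at 16 h was 2 without any 1 of the 0 h wells or without replicate 1 or 2 at 16 h, and 3 without replicate 3 at 16 h.

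At 96 h in LB1 LINC00511 rose and LINC02747 fell. LINC00511, a long noncoding RNA often studied in carcinomas and the member with the second highest CPM, stood at 96.2, 86.3 and 99.97 CPM at 0 h and at 145, 202, 153 and 156 CPM at 96 h. No 96 h well came near the 0 h wells, and LINC00511 rose by 0.79 ± 0.18 (adjusted p = 0.00383). LINC02747 on chromosome 11, in the region of MYEOV, stood at 2.83, 5.31 and 3.59 CPM at 0 h and at 0.304, 1.01, 1.603 and 0.997 CPM at 96 h. It fell by 1.79 ± 0.38 (adjusted p = 0.00218), again without overlap.

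The other 4 members of that comparison were LINC03033 at -1.88 ± 0.38 (adjusted p = 0.00113), LINC02454 at -2.09 ± 0.51 (adjusted p = 0.0107), LINC01213 at 1.19 ± 0.34 (adjusted p = 0.0402) and LINC01559 at 1.05 ± 0.25 (adjusted p = 0.00921). LINC03033 went from 4.32 ± 2.20 (n = 3) to 1.31 ± 0.283 CPM (SD, n = 4). It shares exon positions with LINC01303 and a further gene, and its call was lost without replicate 3 at 0 h (adjusted p = 0.0512). LINC02454 was lost without replicate 1 at 0 h or 3 at 96 h (adjusted p up to 0.119), LINC01559 without replicate 1 at 0 h (adjusted p = 0.0942) and LINC01213 without any of 6 wells. The count was 3 without replicate 1 at 0 h and 12 without the libraries under 5000000 counts, and scaling by library size alone gave 5 higher and 3 lower in place of 3 and 3.

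In the LB2 line few members passed. LINC01278, which overlaps SPIN4 on the same strand, stood at 4.99, 11.0, 8.83 and 6.62 CPM at 0 h and at 18.6, 15.2 and 17.3 CPM at 96 h. The groups did not overlap, and LINC01278 rose by 0.99 ± 0.20 (adjusted p = 0.000996), with an adjusted p of 0.126 when only the compared groups were fitted. LINC01106 rose by 1.55 ± 0.38, from 0.971 ± 0.703 to 3.60 ± 1.12 CPM (SD; n = 4 and 3; adjusted p = 0.0109), a call lost without replicate 3 at 96 h (adjusted p = 0.120). LINC01811 had 0 counts in the 4 wells at 0 h and 17 at 96 h and was at least 4.37-fold higher (adjusted p = 0.0492), a call lost without any of 6 of the 7 wells.

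At 16 h LINC02967 and LINC01593 rose in LB2, by 0.69 ± 0.19 and 2.23 ± 0.62 (adjusted p = 0.0387 and 0.0437). LINC02967 held 6.65, 11.4, 11.7 and 9.94 CPM at 0 h and 14.1, 14.5, 23.9 and 20.9 CPM at 16 h, without overlap, so that it passed in parental and LB2 cells at 16 h and in LAC cells at both times. None of its 4 calls held in every setting, and fitted with only the compared groups its adjusted p in LB2 was 0.722. The LB2 count at 16 h was 0 without the libraries under 5000000 counts, 7 without replicate 2 at 0 h, 1 without replicate 1 and 0 without replicate 3 or 4 at 0 h or replicate 1 or 2 at 16 h. It was 4 without replicate 3 or replicate 4 at 16 h. With median-ratio factors 0 were higher and 1 lower. In LB2 too the log2 change at 16 h followed GC content, with a rank correlation of -0.48 across genes and -0.14 across members, and with the trend with GC and length removed 3 members passed, LINC02967 and LINC01593 among them.

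Before auxin the tagged lines differed from the parental line in 55 members, 46 of them in 1 line, 9 in 2 lines and 0 in all 3. The matching shares of all genes were computed only for each line by itself. In LAC 37 members differed, 3 higher and 34 lower, 12.7% against 15.8% of all genes, of which 11.7% were lower against 7.08% of all genes and 1.03% higher against 8.71%. Of the 3701 other long noncoding genes 7.81% differed in LAC, 47 higher and 242 lower. In LB1 13 differed, 3 higher and 10 lower, 4.47% against 4.05% (1.62% higher, 2.43% lower). In LB2 14 differed, 7 higher and 7 lower, 4.81% against 8.21% (3.91% higher, 4.3% lower). The members' medians were -0.21, -0.08 and -0.09, with -0.06, -0.03 and -0.03 for all genes. Genes without exon overlap made 25, 9 and 10 of these calls. In LAC at 0 h the change followed GC content with a rank correlation of 0.49 across genes and 0.24 across members.

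The widest differences between lines lay in single genes. LINC02408 on chromosome 12, next to DYRK2, a protein kinase, stood at 9.43, 10.8, 16.9 and 12.2 CPM in LB2 at 0 h. The 4 parental wells had 3 counts of it together, and at most 0.483 CPM in one well. The ratio of LB2 to parental was 129 (95% counting interval 43.9 to 629), with an adjusted p of 1.09e-11. LB2 kept 13.5 ± 2.80 CPM at 16 h (n = 4) and 11.5 ± 0.940 CPM at 96 h (SD, n = 3), whereas the highest group mean in the other lines was 0.253 CPM. LINC02408 thus met the limit of 0.5 CPM only through the LB2 libraries. Its selection favoured a high level in LB2, so the ratio and its p-value describe the gene and are not separate support.

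LINC01811 on chromosome 3 had 0 counts in LB2 at 0 h and 30 in the parental line, where the wells held 0.731, 0.248, 1.79 and 2.66 CPM. It was at least 10.9-fold lower in LB2 (adjusted p = 0.000729). In LAC it was lower too, at 0.132 ± 0.175 against 1.36 ± 1.081 CPM (SD, n = 4; adjusted p = 0.0145), a call lost without replicate 3 or 4 of the parental wells or replicate 4 of LAC. The LB1 line had the highest level of the 4 lines, at 2.02 ± 0.598 (n = 3) at 0 h and 6.34 ± 1.76 CPM (n = 4) at 96 h, and did not pass against the parental line.

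LINC02009 on chromosome 3 ends near CCRL2, which encodes a chemerin-binding receptor. It stood at 10.2, 9.08, 6.82 and 8.46 CPM in the parental line and at 1.04, 0.664 and 0.184 CPM in LB1 at 0 h. It was lower in LB1 by -3.63 ± 0.46 on the log2 scale (adjusted p = 1.03e-07), and stayed low in LB1 with auxin, with means of 0.505 ± 0.650 CPM after 16 h and 0.708 ± 0.0861 CPM after 96 h (SD, n = 4). The other lines held 4.86 ± 2.06 CPM (LAC) and 10.2 ± 2.73 CPM (LB2) at 0 h (SD, n = 4). In parental cells LINC02009 fell with auxin at 96 h, by 1.28 ± 0.32 (adjusted p = 0.00832).

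LINC02984 differed in opposite directions. It held 12.3 ± 1.39 CPM in the parental line, 28.2 ± 0.348 CPM (n = 3) in LB1 and 2.75 ± 0.575 CPM in LB2 (SD, n = 4). No wells of these 3 groups overlapped. The log2 differences were 1.18 ± 0.19 in LB1 (adjusted p = 1.27e-05) and -2.04 ± 0.21 in LB2 (adjusted p = 1.06e-09). In LAC, at 8.25 ± 2.41 CPM, it did not pass.

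LAC at 0 h was marked by low members. LINC03040 held 16.5, 6.80, 9.69 and 7.69 CPM there, below all parental wells, a difference of -1.14 ± 0.24 (adjusted p = 0.000612). LINC00662 differed by -0.71 ± 0.16 (adjusted p = 0.00188), LINC03033 by -1.97 ± 0.44 (adjusted p = 0.00131) and LINC00456 by -2.86 ± 0.63 (adjusted p = 0.0012). LINC00484 had 5 counts in LAC and 34 in the parental line, a difference of -3.46 ± 0.80 (adjusted p = 0.00201). LINC01011 was higher in LAC and in LB2, by 2.08 ± 0.65 and 2.20 ± 0.65 (adjusted p = 0.0219 and 0.0259), at no more than 1.24 CPM. Both LINC01011 calls were lost without parental replicate 2 or 3, or without replicate 3 of the tagged line (adjusted p up to 0.126).

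In LB1 LINC02577, LINC00668 and LINC00628 were lower at 0 h by -2.09, -1.96 and -2.06 on the log2 scale (adjusted p = 0.0156, 0.00769 and 0.0343). The LINC02577 call was lost without LB1 replicate 3 (adjusted p = 0.224) and the LINC00668 call without LB1 replicate 1 or 3 (adjusted p up to 0.0979), and that of LINC00628 without any of 5 wells. In LB2 LINC00261 and LINC02747 were higher by 2.40 ± 0.75 and 1.12 ± 0.34 (adjusted p = 0.0350 and 0.0307), each lost without any of 4 wells. The LB1 count was 8 without LB1 replicate 1 and 6 without replicate 3. The LB2 count was 8 without parental replicate 2 or 3.

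**Figure D5:**
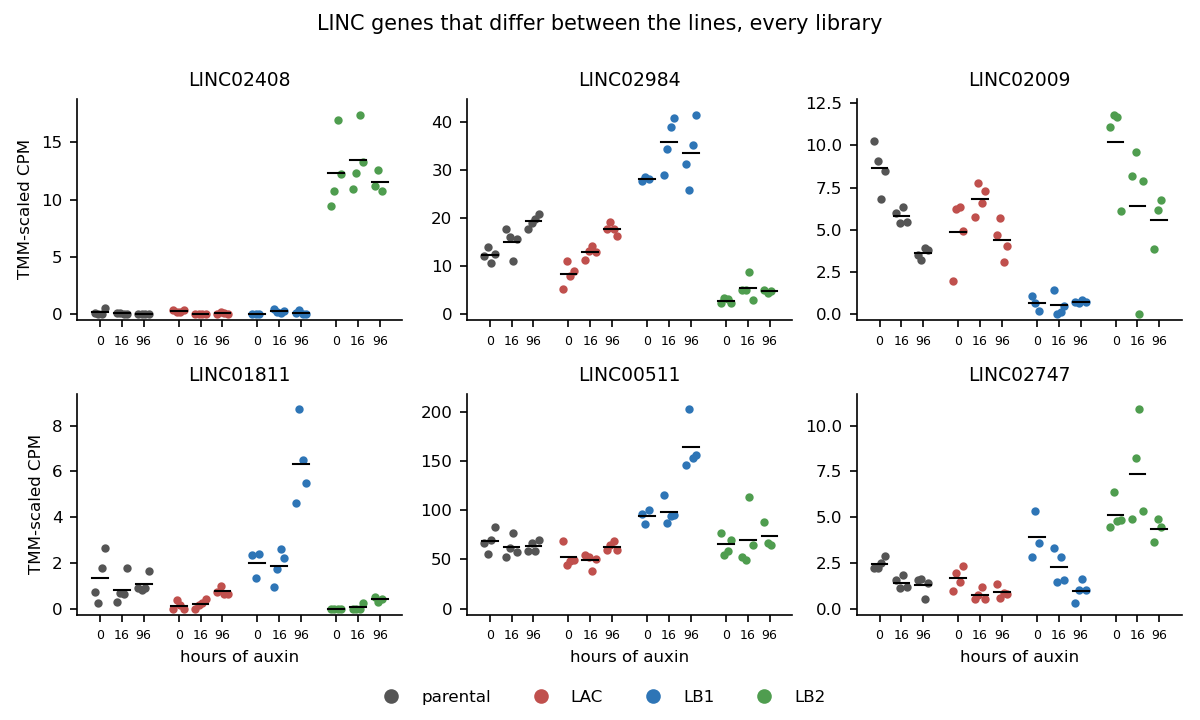
TMM-scaled CPM of 6 LINC genes that differ between lines (vertical axes, one panel per gene) in each library, by line and hours of auxin (horizontal axis). Points are libraries and lines are group means. LINC02408 is near 12 CPM in LB2 and near 0 elsewhere, LINC02009 is below 2 CPM in every LB1 well, and LINC00511 is highest in LB1 at 96 h.

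Whether a tagged line responded to auxin differently from the parental line was tested at 96 h, and only there, as the difference of the log2 changes. In LAC 17 members passed, 14 with a higher response and 3 with a lower one, 5.84% against 7.4% of all genes, of which 4.81% were higher against 3.1% and 1.03% lower against 4.3%. Genes without exon overlap made 7 of the 17, all of them higher, so the 3 with a lower response all share exon positions with another gene. In LB1 4 passed, all higher, 3 of them without exon overlap, 1.37% against 1.04% (0.726% higher, 0.317% lower). In LB2 0 passed with edgeR against 0.368% of all genes (0.27% higher, 0.0977% lower), while 33 members had an unadjusted p under 0.05 and DESeq2 called 4. The members' medians were 0.32, 0.41 and 0.28, against 0.06, 0.03 and 0.01 for all genes. Those of the other long noncoding genes were 0.50, 0.66 and 0.41. These differences share the parental wells with the parental comparison, in which the members' median was below 0, so the sign of the medians is not a separate result. In LAC the difference in response followed GC content, with a rank correlation of -0.64 across genes and -0.35 across members. With the trend with GC and length removed 16 members passed, among them every member named here for LAC.

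LINC03040, one of the members that passed in LAC, went from 20.5 ± 1.02 to 10.6 ± 2.27 CPM in the parental line and from 10.2 ± 4.39 to 15.5 ± 2.35 CPM in LAC (SD, n = 4). The difference in log2 change was 1.69 ± 0.32 (adjusted p = 0.00163). LINC00662 went from 41.4 ± 2.34 to 30.1 ± 1.26 CPM in the parental line and from 24.4 ± 7.25 to 40.6 ± 4.04 CPM in LAC (SD, n = 4), a difference of 1.15 ± 0.23 (adjusted p = 0.00227). LINC00630 differed by 0.98 ± 0.23 (adjusted p = 0.00864). All of these 3 genes were lower in LAC than in parental cells at 0 h and nearer to the parental 0 h level at 96 h. This pattern is partly built into the test, because the difference in response contains the 0 h wells of both lines. A low LAC value at 0 h by itself raises the difference, so the pattern is not a separate result.

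Larger differences rested on fewer counts. LINC00484, LINC00456 and LINC01011 differed by 3.74 ± 1.04, 3.35 ± 0.85 and -2.68 ± 0.85 in LAC (adjusted p = 0.0222, 0.0128 and 0.0428), with group means of at most 1.71 CPM. LINC00484 was lost without parental replicate 2 or LAC replicate 3 at 96 h (adjusted p up to 0.0578), and LINC01011 without any of 8 wells. In LB1 LINC02883, LINC00299 and LINC01814 differed by 3.35 ± 0.87, 1.79 ± 0.43 and 1.13 ± 0.29 (adjusted p = 0.0419, 0.0296 and 0.0419), and LINC00511 by 0.90 ± 0.24 (adjusted p = 0.0473). Each of these 4 calls was lost when any of 5 to 12 of the 15 wells was left out. The LAC count was 4 without parental replicate 2 at 96 h, 6 without LAC replicate 2 and 9 without LAC replicate 3 at 96 h, and 10, 9, 9 and 11 without parental replicate 2 or 4 or LAC replicate 1 or 3 at 0 h. Scaling by library size alone gave 23 higher and 0 lower in LAC. The LB1 count was 8 without LB1 replicate 4 at 96 h, 0 without parental replicate 1 at 0 h or 2 at 96 h, LB1 replicate 2 or 3 at 0 h or LB1 replicate 2 at 96 h, and 1 or 2 without the others that moved it.

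For 243 members the nearest protein-coding gene was tested, at a median distance of 12888 bases over all members. At 16 h in the parental line 23 called members had such a neighbour, which passed in the same direction for 1 and in the opposite one for 2, while 9.47% of all 243 neighbours passed. At 96 h it was 1 in each direction of 13, against 12.8% of neighbours. In LAC at 96 h 6 of 21 had a neighbour that passed in the same direction and 1 in the opposite one, against 23.0% of neighbours and 15.4% of all genes. At 0 h the neighbour passed in the same direction for 2 of 28 in LAC and in the opposite one for 1, against 20.6% of neighbours. For LB1 it passed in the same direction for 3 of 9, against 6.17% of neighbours, and for LB2 for 2 of 11, against 13.6%. These are counts of few genes and the difference from the share among all neighbours was not tested.

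Across the 243 members the correlation of the log2 changes of member and neighbour was between 0.023 and 0.252 in the 14 comparisons. For the 15 pairs that start within 1000 bases of each other on opposite strands it varied more between comparisons. It was 0.632 in the parental line at 16 h and 0.189 at 96 h, 0.535 and 0.563 for LAC, 0.119 and 0.217 for LB1, and -0.130 and 0.075 for LB2. At 0 h LAC had 0.406, LB1 had -0.350 and LB2 had -0.110, and for the differences in response it was 0.416, 0.373 and 0.234. These are descriptions over genes of the same libraries, which are not independent.

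The clearest shared case was LINC02009 and CCRL2, whose ends lie 3527 bases apart. In LB1 at 0 h the member differed by -3.63 and CCRL2 by -2.53 (adjusted p = 4.74e-09). LINC02747 and LINC01488 start 117 bases apart on opposite strands, and their nearest coding gene is MYEOV. MYEOV passed beside LINC02747 in LB1 at 96 h (log2 changes of -1.79 and -1.15) and beside LINC01488 in the parental line and LAC at 96 h (-3.48 and -1.20, -3.75 and -0.69). The 2 members themselves did not pass together in any comparison. LINC02901 and EZR fell together in LAC at 96 h (-1.22 and -0.80), while LINC01213 rose there and TSC22D2 fell (1.35 and -0.78).

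Members also lay beside each other. Within 10000 bases of each other lay 17 pairs of members, 15 with overlapping bodies. LINC00299 and LINC01814 were the only pair to pass together, in the same direction in 3 comparisons, and 0 pairs passed in opposite directions.

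The machinery that limits such transcripts was examined in 2 lists. They are read against the share of all genes that passed, which was 9.01% and 7.78% in the parental line at 16 and 96 h, 15.4% in LAC at 96 h and at most 3.55% in the other comparisons within a line. Of 23 genes of nuclear RNA decay, which degrade many intergenic transcripts, 0 passed in the parental line at 16 h and 1, higher, at 96 h. In LAC 0 passed at 16 h, and at 96 h 2 were higher and 4 lower. None passed in LB1 at either time or in LB2 at 16 h, and 1 was higher in LB2 at 96 h.

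Of 16 genes of the Integrator and restrictor complexes, which end noncoding transcription early, 4 were higher in the parental line at 16 h and 3 at 96 h, against 4.23% and 3.94% of all genes, and 0 were lower. In LAC 1 was higher at 16 h, and at 96 h 4 were higher and 3 lower, against 6.74% and 8.64% of all genes. In LB1 0 passed at 16 h and 1 was higher at 96 h, and in LB2 0 passed at either time. In LAC at 0 h 5 decay genes were higher and 2 lower, and 4 Integrator and restrictor genes were higher and 1 lower, against 8.71% and 7.08% of all genes.

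A further list held well-known long noncoding RNAs outside the LINC naming. Of 31 tested, 2 were higher and 9 lower in the parental line at 16 h, against 4.23% and 4.78% of all genes, and 2 higher and 6 lower at 96 h, against 3.94% and 3.84%. In LAC 0 passed at 16 h, and 5 were higher and 0 lower at 96 h, against 6.74% and 8.64%. In LB1 2 were higher and 1 lower at 16 h and 2 higher at 96 h, and in LB2 1 was higher and 3 lower at 16 h and 1 in each direction at 96 h, where at most 1.95% of all genes were higher and 2.12% lower. NEAT1, the scaffold of paraspeckles, went from 789 ± 135 to 318 ± 47.3 CPM in the parental line at 16 h (SD, n = 4), a log2 change of -1.31. H19, an imprinted RNA, rose there by 1.78, from 18.8 ± 6.57 to 63.7 ± 22.8 CPM (SD, n = 4). At 0 h the same list had 1 member higher and 7 lower for LAC, against 8.71% and 7.08% of all genes. For LB1 it had 0 higher and 5 lower, against 1.62% and 2.43%, and for LB2 it had 2 higher and 4 lower, against 3.91% and 4.3%.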

How the data were processed

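The deposited table gives raw counts per gene for 46 libraries of DLD-1 cells, made by the authors from paired total RNA reads. It came from featureCounts 1.6.4 in an nf-core/rnaseq 1.4.2 environment, per the file headers. STAR 2.7.10a, SAMtools 1.10, DESeq2 1.40.2, deepTools 3.4.5 and GRCh38 are named in the submitters' processing notes, and a stranded library kit with ribosomal RNA depletion in the labels' protocols. The counter's strand setting, its treatment of reads with several positions and the annotation release are not given in the sources used here. Per the labels, a sample's group is its line and hours of auxin. 1 gene broken over 3 lines was left out, which left 62756 genes. A symbol was found for 42341 of them (67.5%). Gene types come from GENCODE 29, which held 92.9% of the IDs.

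All libraries entered 1 fit with edgeR 4.0.16 in R 4.3.3: 12 group means, TMM factors, filterByExpr, the quasi-likelihood test over 21484 genes and Benjamini-Hochberg adjustment, with 0.05 as the limit. Printed levels are TMM-scaled CPM, except the mean CPM that chose the members and the levels per kilobase, which use plain library size. Totals ran from 479446 to 37309421 counts. Intervals and limits for a count of 0 (3 counts) cover counting error only. The steps were tested on simulated data. The alternatives were other scaling (RLE, library size), no filter, DESeq2 1.42.0, the compared groups alone, a replicate block, no library under 5000000 counts, removal of the trend with GC and length, and each replicate left out. Over the 66 pairs of libraries within a group, counts differed by far more than sampling noise (lowest chi-square per degree of freedom 3.97). Replicate numbers showed little pairing of the wells over all groups. Deviations correlated at a mean of 0.070 over 243 pairs with the same number (range -0.711 to 0.845) and -0.013 over 726 others. Pairing within single lines or times was not tested, and the block stands only with the alternatives.

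The members and lists were chosen with earlier results of these data known. Genes named are the 5 highest by CPM and by CPM per kilobase, the 5 with the largest change among those that passed with at least 1 CPM in either group of a comparison, the 3 with the largest difference in response, those that passed in 1 direction in at least 3 comparisons within a line, 3 on each side of the level limit, those whose promoter is shown and nearest coding genes. NEAT1 and H19, the lamin genes and the genes that share exon positions with a member are named outside this rule. 1 Y-linked member is counted but not described.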

Additional observations from a re-analysis of the deposited data

Results flagged for a closer look

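Single libraries stood apart in 10 of the 144 groups of 4 libraries examined for the genes named (chance gives about 1 in 20). In LB1 at 16 h, LINC03040 had a low library at 4.16 CPM. In LAC at 0 h, LINC02901 had a high one at 5.50 CPM and LINC00456 at 0.481 CPM, while LINC02156 had a low one at 0 CPM and LINC02967 at 3.89 CPM. The last 2 are both replicate 1, which is 1 of the 6 libraries under 5000000 counts. In the parental line at 0 h, LINC02577 had a high library at 2.90 CPM and LINC02680 at 3.41 CPM. LINC02967 had a low one at 9.88 CPM in parental cells at 16 h, and at 96 h LINC01488 had a high one at 0.276 CPM and LINC03040 at 13.96 CPM.

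The tested difference between the auxin responses of a tagged line and of the parental line at 96 h passed for 17 members in LAC and 4 in LB1 with edgeR's quasi-likelihood test. Those of the members named are given here. In LAC the differences in log2 change were 1.15 for LINC00662, 2.36 for LINC00628, 3.35 for LINC00456, 1.86 for LINC02156, 0.978 for LINC00630, 1.38 for LINC01504, 1.69 for LINC03040, 3.74 for LINC00484, -2.68 for LINC01011 and 1.64 for LINC00299. In LB1 they were 0.896 for LINC00511, 1.13 for LINC01814, 3.35 for LINC02883 and 1.79 for LINC00299. LINC00299 was the only named member with a difference in both lines.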

How the results depend on the processing

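No single-member result changed direction: of 1667 values computed for 100 results under the alternatives, 1254 stayed on the same side of the threshold and 413 no longer passed. Counts of members that passed moved more, and the cause was not tested. Fitting only the compared groups gave 0 in LAC at 16 h, 6 in LAC at 96 h, 14 in LB1 at 96 h, 0 in LB2 at 16 and at 96 h, 19 and 3 in LAC and LB2 at 0 h, and 11 for the difference in response in LAC and in LB1. Removing the GC and length trend gave 37 in the parental line at 16 h, 11 in LB1 and 9 in LB2 at 96 h, 22 in LB2 at 0 h, and 9 and 2 for the differences in LB1 and LB2. Without the libraries under 5000000 counts there were 26 in the parental line at 96 h, 11 and 12 in LB1 at 16 and 96 h, 0 and 8 in LB2, and 2 for the LB1 difference. DESeq2 gave 11 in LAC and 4 in LB2 at 16 h, 8 in LB2 at 96 h, and 9 and 4 for the differences in LB1 and LB2. Without the low-count filter there were 3 in LB1 at 16 h, 6 in LB2 at 0 h and 2 for the LB1 difference. RLE scaling gave 1 in LB2 at 16 h, and library size alone gave 0 there, 8 at 96 h, and 9 and 4 for the differences in LB1 and LB2. With the replicate block the counts were 1 for the LB1 difference and 2 for the LB2 difference, and it moved no other count by over 1.5 times.

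Leaving out 1 replicate gave 13 to 24 in the parental line at 16 h and 9 to 13 at 96 h, 0 to 23 and 10 to 34 in LAC, 2 to 5 and 3 to 7 in LB1, and 0 to 7 and 2 to 4 in LB2. At 0 h it gave 26 to 38 in LAC, 6 to 12 in LB1 and 8 to 15 in LB2, and for the differences 4 to 20 in LAC, 0 to 8 in LB1 and 0 to 1 in LB2. Of the members that passed, those that also passed under every alternative numbered 7 and 6 in the parental line at 16 and 96 h, 0 and 4 for LAC, 1 and 2 for LB1 and 0 at either time for LB2. At 0 h they numbered 14, 4 and 4 in LAC, LB1 and LB2, and for the differences 4 with LAC and 0 with either other line. Under DESeq2 the split in LB2 at 0 h was 5 higher and 12 lower, in LB2 at 96 h 4 and 4, and in the parental line at 96 h 2 and 18. Depth limits the scarce members: in the least deep library 123 of 291 had a count.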
